A study of Homo sapiens with 6 samples.

Results

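The expression of 9 transcription factor genes that set and maintain the identity of the intestinal epithelium was followed in colorectal cancer cells with and without a hairpin against TCF7L1. The genes were CDX1, CDX2, HNF4A, HNF4G, FOXA1, FOXA2, GATA6, SOX9 and ASCL2, and every probe that the platform annotation assigns to one of them, under its current or an older symbol, was taken. That gave 10 of the 47225 probes on the array, for 8 of the 9 genes, where 20043 genes are named in all. FOXA2 had 3 probes and each of the other 7 genes had 1. The annotation used here names no probe for HNF4A, which was not analysed here. The cells were HCT116, an established human colorectal carcinoma line. Total RNA was measured on 6 Illumina arrays, 3 of cells carrying a control short hairpin RNA (shCtrl) and 3 of cells carrying a hairpin directed at TCF7L1 (shTCF7L1). The series describes the 3 samples of each condition as biological replicates. The labels name no other agent and no time point, and they do not say whether the cells were pools or clones.

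CDX1 and CDX2 are caudal-type homeodomain proteins, and in mouse CDX2 is required for the gut endoderm to become intestine. HNF4A and HNF4G are nuclear receptors that act with the CDX proteins on genes of the absorptive cells. FOXA1 and FOXA2 are forkhead proteins that open chromatin in endoderm, GATA6 is a zinc finger protein of the same tissue, and SOX9 and ASCL2 act in the crypt, where Wnt signalling is active. TCF7L1 belongs to the TCF/LEF proteins, which bind DNA and carry the Wnt signal to it, and it is best known as a repressor.

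The promoter sequences of CDX2 and FOXA1 are shown first, because TCF/LEF proteins recognise a short motif that can be searched for in them. Both genes had a measurable signal and a promoter window. RefSeq promoter windows of assembly GRCh38.p14, each of 300 bases (250 before the transcription start and 50 after it), matched 4 of the 9 genes by symbol: CDX2, HNF4A, FOXA1 and GATA6. CDX1, HNF4G, FOXA2, SOX9 and ASCL2 had no window and are named only, so their promoters were not searched. The TCF/LEF motif was searched on both strands as CTTTGNN with an A or a T at each N, and its matches are in capitals. The CDX2 window lies on the minus strand at chr13:27969266-27969565 and the FOXA1 window on the minus strand at chr14:37595200-37595499.
CDX2: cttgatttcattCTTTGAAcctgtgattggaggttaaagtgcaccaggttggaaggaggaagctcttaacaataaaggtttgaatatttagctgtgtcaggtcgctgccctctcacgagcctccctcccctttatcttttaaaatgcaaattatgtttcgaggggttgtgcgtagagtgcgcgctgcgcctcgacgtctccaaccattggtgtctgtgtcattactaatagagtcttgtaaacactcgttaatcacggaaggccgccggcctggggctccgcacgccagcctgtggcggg
FOXA1: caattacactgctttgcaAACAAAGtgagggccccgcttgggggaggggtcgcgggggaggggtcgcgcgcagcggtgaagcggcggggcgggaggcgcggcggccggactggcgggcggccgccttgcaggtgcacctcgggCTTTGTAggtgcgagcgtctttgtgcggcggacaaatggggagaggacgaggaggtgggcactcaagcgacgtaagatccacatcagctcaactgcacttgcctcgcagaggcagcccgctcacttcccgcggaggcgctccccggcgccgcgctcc

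The CDX2 window held 1 match, CTTTGAA, whose first base lies 238 bases before the start. The FOXA1 window held 2, AACAAAG (the reverse complement of CTTTGTT) from 232 bases before the start and CTTTGTA from 107 bases before it. Such a match was present in 13.8% of 35116 promoter windows of this length. In both further motifs N stands for any base. A CDX-type motif, TTTATNG on either strand, was found in the CDX2 window (CAATAAA, from 181 bases before the start) and in 9.73% of all windows. A forkhead motif, TGTTTNC on either strand, was found in the CDX2 window (GTAAACA, from 13 bases before the start) and in the FOXA1 window (GCAAACA, from 235 bases before the start, overlapping the first TCF/LEF match), as in 18% of all windows. The GATA6 window and both HNF4A windows held none of these 3 motifs. A match of letters is a description of the sequence and not evidence of binding.

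Between 34% and 36.8% of all probes were above background on an array (detection p below 0.01). Correlations over the tested probes were 0.974 to 0.977 for arrays of the same group and 0.949 to 0.954 for arrays of different groups. The array names in the labels place all samples on 1 chip and the 2 groups on separate stretches of it, so chip position and hairpin cannot be told apart. The targeted gene itself, TCF7L1 (ILMN_1733841), had bead signals of 45.1, 35.8 and 40.6 in shCtrl and 29.3, 32.4 and 25.4 in shTCF7L1. Of its arrays, 2 of 3 controls and 0 of 3 knockdowns were above background, fewer than the 3 of 6 arrays required for testing. With this probe added to the fit, the log2 difference was -0.53 (SE 0.20) and did not pass (limma adjusted p = 0.0871). The knockdown level lies below the detection limit, so the size of this difference is not well measured. Of 17 colorectal epithelial markers 9 were above background on all arrays (CDH1, CDX2, CLDN3, CLDN7, ELF3, EPCAM, KRT8, KRT18 and KRT19), while CDH17, CEACAM5, GPA33, LGALS4 and VIL1 were above it on none. The epithelial label was thus met by general epithelial markers and CDX2 but not by these 5 markers of differentiated intestine. Of the markers of other cells, 5 of 6 for endothelial cells, 4 of 9 for leukocytes (PTPRC among them) and 7 of 12 for fibroblasts or smooth muscle (PDGFRA and PDGFRB among them) were above background on no array. CD68 and HLA-DRA of the leukocyte list and ACTA2, COL1A1 and TAGLN of the fibroblast and smooth muscle list were above it on all arrays.

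FOXA2 rose in the knockdown cells by 1 of its 3 probes, and it was the one member that passed the test. CDX2, FOXA1 and SOX9 were also expressed and did not pass, while CDX1, HNF4G, GATA6 and ASCL2 were at or near background in both groups. A probe was tested if it was above background on at least 3 of the 6 arrays, and 4 member probes met this, 1 each of CDX2, FOXA1, FOXA2 and SOX9. Their count of 1 past the threshold (limma, Benjamini-Hochberg adjusted p below 0.05) stands against 13% of all 16835 probes tested, 6.46% higher and 6.58% lower in shTCF7L1. The calls were 49.5% higher ones here and 66.4% with the authors' processed values. The other 6 member probes, of 5 genes, were below the filter, and their values come from the same fit with these probes added. In these bulk samples a change in the share of cells with a transcript and a change in transcript per cell cannot be told apart.

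**Figure D1:**
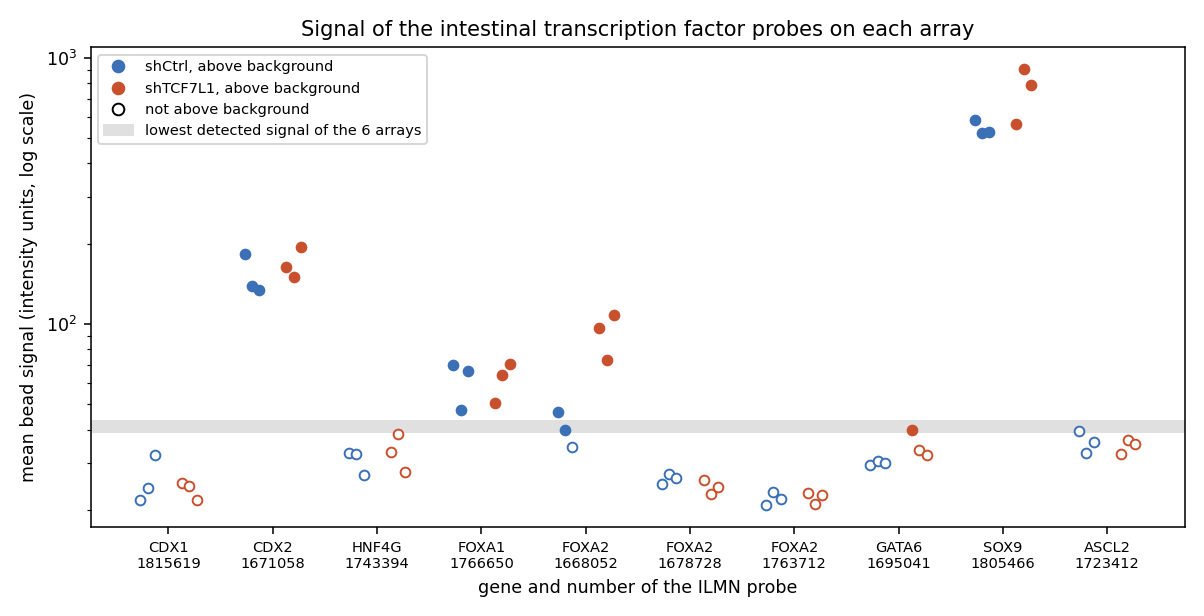
Mean bead signal (log axis, intensity units) of the 10 member probes on each array, with 3 shCtrl points (blue) and 3 shTCF7L1 points (red) per probe; open points were not above background, and the grey band spans the lowest detected signal of the 6 arrays. FOXA2 probe ILMN_1668052 ran from 34.4 to 46.4 in shCtrl and from 73.4 to 108 in shTCF7L1, SOX9 overlapped between the groups, and 5 probes were above background on no array.

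The FOXA2 signal came from probe ILMN_1668052. Its bead signal was 46.4, 39.8 and 34.4 in shCtrl replicates 1 to 3 and 96.2, 73.4 and 108 in shTCF7L1 replicates 1 to 3. Every knockdown array was above every control array, and shCtrl replicate 3, the lowest, was the only one of the 6 not above background. Control arrays averaged 4.86 ± 0.27 and knockdown arrays 6.26 ± 0.37 on the normalized log2 scale (SD, n = 3 each). This difference of 1.41 on the log2 scale (SE 0.23, 95% interval 0.92 to 1.89), or 2.65-fold with an interval of 1.90-fold to 3.71-fold, exceeded the spread between arrays in the limma fit (adjusted p = 0.00108). Of all 16835 tested probes, 76 (0.451%) had a log2 difference at least this large in the same direction. The 3 knockdown arrays met the detection filter without the controls, so the call depends on the group where the probe is high. With no detection filter the limma adjusted p of this FOXA2 probe was 0.0320.

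The size of the FOXA2 difference depends on how the background is treated, because the control signal lies close to it. In the authors' processed signals, where a background has been subtracted, the control arrays read 18.2, 13.5 and 7.11 and the knockdown arrays 71.0, 46.2 and 85.0. Those values gave a log2 difference of 2.44 (adjusted p = 0.0233), where the median over all tested probes was 0.11. Raising the offset to 50 gave 0.82 (adjusted p = 0.00781). It passed in all 18 alternatives tried, with adjusted p between 0.00012 and 0.0320 (for the filter on all 6 arrays, which this probe does not meet, with the probe added), and without any single array it lay between 1.25 and 1.61.

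Both other FOXA2 probes gave no signal above background on any array. Probe ILMN_1678728, which the annotation ties to the same transcript record as the responding probe (NM_153675), read 25.1, 27.3 and 26.4 in shCtrl and 25.8, 22.9 and 24.4 in shTCF7L1. Probe ILMN_1763712, tied to NM_021784, read 20.8, 23.4 and 21.9 in shCtrl and 23.2, 21.1 and 22.7 in shTCF7L1. The 2 groups overlapped for each, and no fold is given where both groups are below background. The FOXA2 increase thus rests on 1 probe of 3. Which FOXA2 transcripts each probe can read was not tested.

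FOXA1, the other forkhead member, was expressed at a low level in all 6 arrays and did not differ beyond its spread. Its probe (ILMN_1766650) read 70.1, 47.3 and 66.2 in shCtrl and 50.3, 64.1 and 70.7 in shTCF7L1, with overlapping groups. The log2 difference was -0.08 (SE 0.23, 95% interval -0.57 to 0.40), an interval from 0.676-fold to 1.32-fold (limma adjusted p = 0.848). The interval of FOXA1 ends below where that of FOXA2 begins; the difference between these forkhead genes was not itself tested, since levels of different probes are not set against each other.

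**Figure D2:**
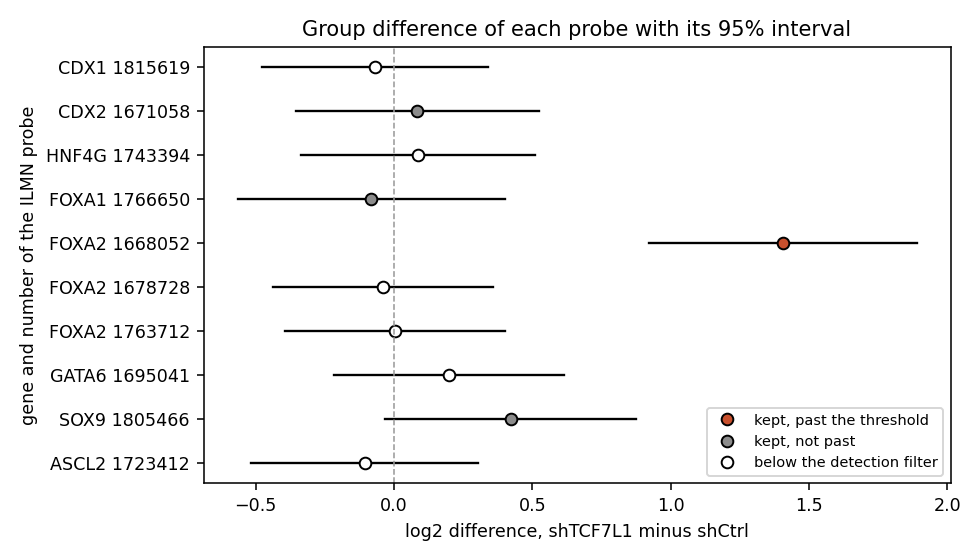
Log2 difference (shTCF7L1 minus shCtrl) of each member probe with its 95% interval from the limma fit; red marks the probe past the threshold, grey the tested probes that were not, and white the probes below the detection filter. The interval of FOXA2 probe ILMN_1668052 runs from 0.92 to 1.89, and those of the other 9 probes include 0.

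CDX2 was clearly expressed and was close in level in both groups. Its probe (ILMN_1671058) read 183, 138 and 134 in shCtrl and 164, 149 and 195 in shTCF7L1, and the highest control array lay above 2 of the 3 knockdown arrays. The log2 levels were 7.16 ± 0.20 and 7.24 ± 0.23 (SD, n = 3 each), a difference of 0.08 (SE 0.21, adjusted p = 0.828). The 95% interval of -0.36 to 0.53 spans 0.782-fold to 1.44-fold, so a change inside that range is not excluded by 3 arrays a group. CDX1, its relative, was above background on no array: its probe (ILMN_1815619) read 21.8, 24.1 and 32.1 in shCtrl and 25.2, 24.6 and 21.8 in shTCF7L1. PDX1, the homeobox gene of duodenum and pancreas, was tested as a member of the stomach and liver list and gave 0.06 (SE 0.20, adjusted p = 0.882); it was chosen after its value was seen.

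SOX9, an HMG-box protein of crypt and Paneth cells, had a strong signal on every array, and its knockdown arrays disagreed among themselves. The probe (ILMN_1805466) read 582, 519 and 525 in shCtrl and 563, 904 and 788 in shTCF7L1. The first knockdown array lay inside the control range, and the other 2 were above all controls. On the log2 scale the SD was 0.03 in shCtrl and 0.36 in shTCF7L1 around means of 9.07 and 9.49. The log2 difference of 0.42 (SE 0.21, 95% interval -0.03 to 0.88) did not pass (limma adjusted p = 0.211, unadjusted p = 0.0668). It was 0.63 without shTCF7L1 replicate 1 (adjusted p = 0.0819) and 0.29 without shTCF7L1 replicate 2 (adjusted p = 0.475), and it passed in 0 of the 18 alternatives.

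**Figure D3:**
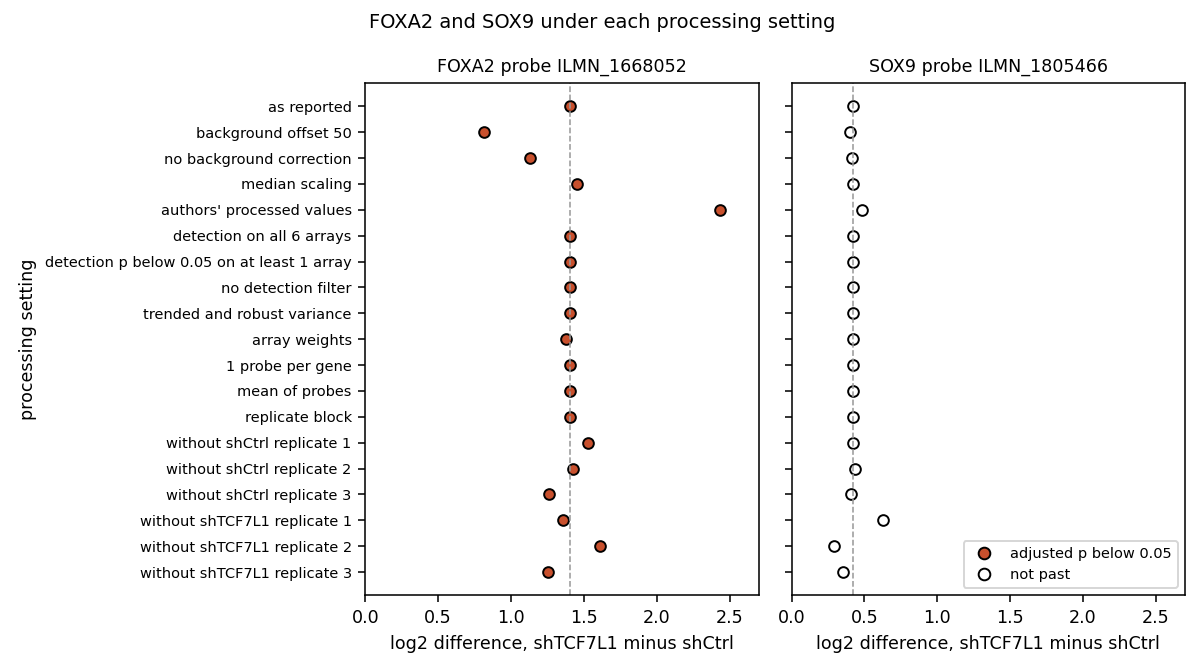
Log2 difference (shTCF7L1 minus shCtrl) of FOXA2 probe ILMN_1668052 and SOX9 probe ILMN_1805466 as reported (dashed line) and under each of 18 processing alternatives; red points had an adjusted p below 0.05. FOXA2 ran from 0.82 to 2.44 with every point past the threshold, and SOX9 from 0.29 to 0.63 with none past it.

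GATA6, which acts beside FOXA2 in endoderm, was near background. Its probe (ILMN_1695041) read 29.5, 30.4 and 30.0 in shCtrl and 39.8, 33.7 and 32.0 in shTCF7L1, and was above background only on shTCF7L1 replicate 1. The groups did not overlap, as held for 32.4% of all tested probes. The log2 difference of 0.20 (SE 0.20) did not pass (limma adjusted p = 0.549). With the authors' processed values it was 1.502 and did not pass either (adjusted p = 0.0796). The value thus depends on how the background is treated, and no fold is given because the one detected array does not lift the group above the detection limit.

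HNF4G and ASCL2 were above background on no array. HNF4G (ILMN_1743394), the nuclear receptor, read 32.7, 32.3 and 26.9 in shCtrl and 33.0, 38.6 and 27.6 in shTCF7L1. ASCL2 (ILMN_1723412), the basic helix-loop-helix factor of crypt base stem cells, read 39.5, 32.7 and 36.0 in shCtrl and 32.3, 36.5 and 35.3 in shTCF7L1. The control arrays of ASCL2 came close to the limit, with a lowest detection p of 0.0104. Groups overlapped for both genes. Levels below the detection limit were not measurable here, and absence of the transcripts is not shown.

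The genomic neighbours of the members were looked up in the RefSeq gene order as the nearest gene on each side with a named probe. LINC00261, the long noncoding RNA gene beside FOXA2, and SSTR4 on the other side were above background on no array. Of all 18 neighbours 4 were tested: MIPOL1 beside FOXA1 (log2 difference -0.43, SE 0.20, adjusted p = 0.175), MIB1 beside GATA6 (0.51, SE 0.19, adjusted p = 0.0929), SLC39A11 beside SOX9 (-0.53, SE 0.21, adjusted p = 0.111) and TTPAL beside HNF4A (-0.08, SE 0.23, adjusted p = 0.846). No neighbour passed in limma.

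The genes whose pattern over the 6 arrays was most like that of FOXA2 were TMEM109 (Pearson r = 0.999), FHIP2A (r = 0.999) and HLA-DPA1 (r = 0.995), among 10469 other genes. Their log2 differences were 1.26 (SE 0.22), 0.85 (SE 0.20) and 0.72 (SE 0.20). The 6 points share the group difference, and 4.62% of all genes had an r above 0.9, so these likenesses are a description.

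Other transcription factors of the gut epithelium moved in both directions. Of 26 tested members of that list (each gene by its brightest tested probe) 4 rose, 2 fell and 20 did not pass, and 14% of all 10470 genes passed, 7.35% higher and 6.7% lower. The list's median log2 difference was 0.16, against 0.02 over all genes. TCF7L2, the TCF/LEF factor that keeps the crypt compartment in mouse, rose 3.01-fold (log2 1.59, SE 0.22, adjusted p = 0.000256), from bead signals of 83.2 to 119 in shCtrl to 298 to 310 in shTCF7L1. PRDM1, a zinc finger repressor of the immature mouse gut epithelium, rose 2.38-fold (SE 0.20 on the log2 scale), from 51.7 to 60.8 up to 116 to 141. ONECUT2, a homeodomain factor of endoderm, rose 2.28-fold (SE 0.21). Its 2 other tested probes gave 1.01 (adjusted p = 0.00965) and 0.58 (adjusted p = 0.0898). IRX3, an Iroquois homeodomain gene, rose 2.06-fold (SE 0.20), with knockdown signals of 363 to 365 above control signals of 142 to 212. These 4 passed in all 18 alternatives.

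ELF3, an ETS factor of epithelia, fell by 0.99 on the log2 scale (SE 0.20, adjusted p = 0.00499), from bead signals of 264 to 281 to signals of 129 to 170, and passed in all 18 alternatives. ID2, an inhibitor of helix-loop-helix factors, fell by 0.86 (SE 0.22, adjusted p = 0.0161) by one of its probes; it was chosen after its value was seen. Its other tested probe (ILMN_1793990) fell by 1.70 (SE 0.20, adjusted p = 8.35e-05), and the mean of both probes by 1.28 (adjusted p = 0.000636). The call of the first ID2 probe ended on leaving out shCtrl replicate 2 (adjusted p = 0.0759), shCtrl replicate 3 (0.0573), shTCF7L1 replicate 1 (0.0576) or shTCF7L1 replicate 2 (0.0556), and also with the authors' values (0.0683) and with no detection filter (0.0770). The further endoderm factors FOXA3 (-0.43, SE 0.21, adjusted p = 0.197), a relative of FOXA1 and FOXA2, and KLF5 (0.80, SE 0.30, adjusted p = 0.0863) did not pass, both chosen after their values were seen.

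**Figure D4:**
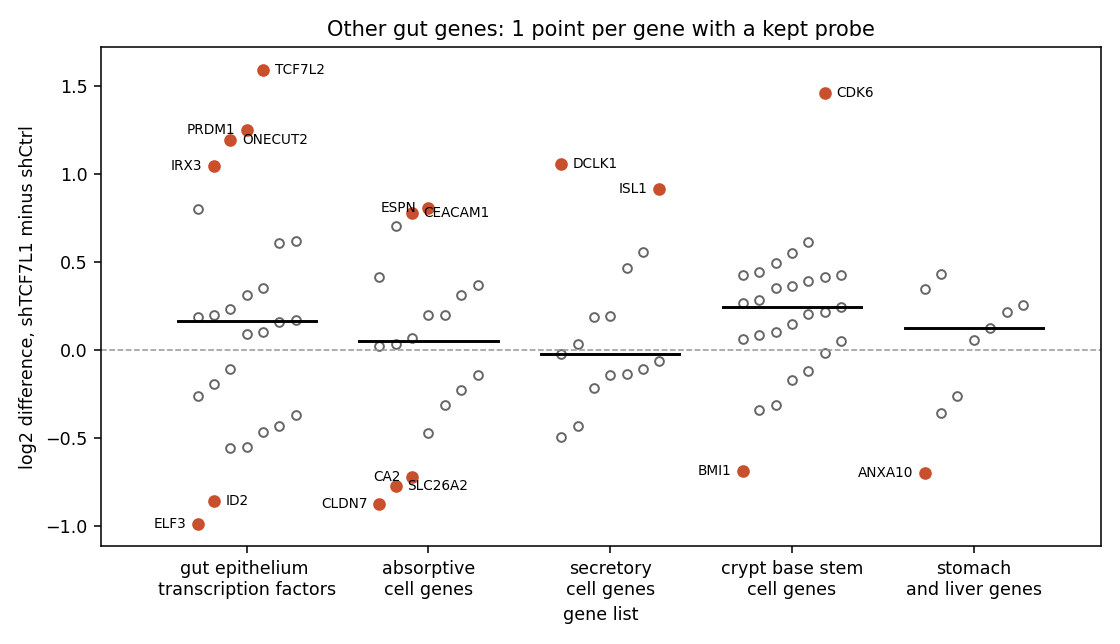
Log2 difference (shTCF7L1 minus shCtrl) of every tested gene of 5 gut gene lists, each gene by its brightest tested probe; filled, labelled points had an adjusted p below 0.05, and the bar is the median of the list. The medians lie between -0.03 and 0.24, and the 4 factors that rose (TCF7L2, PRDM1, ONECUT2 and IRX3) lie above 1.0.

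Most genes of differentiated intestinal cells were below the detection filter. Of 77 absorptive cell genes with a named probe 18 were tested, and 2 rose, 3 fell and 13 did not pass (median 0.05). Over all genes 14% passed, 7.35% higher and 6.7% lower. CLDN7, a tight junction protein, fell by 0.88 (SE 0.25, adjusted p = 0.0289). The sulfate transporter SLC26A2 fell by 0.78 (SE 0.21, adjusted p = 0.0220) in this fit. All 3 control arrays but only 1 of the 3 knockdown arrays detected it above background, so its knockdown level lies near the detection limit and the size of the fall is not well measured. ESPN, which bundles actin in microvilli, rose by 0.80 (SE 0.22, adjusted p = 0.0255), and the adhesion molecule CEACAM1 by 0.77 (SE 0.20, adjusted p = 0.0165). CA2, a carbonic anhydrase chosen after its value was seen, fell by 0.72 (SE 0.20, adjusted p = 0.0243). Its other tested probe (ILMN_2199439) fell by 1.16 (SE 0.29, adjusted p = 0.0147), and the mean of both CA2 probes by 0.94 (adjusted p = 0.00726). The size of the SLC26A2 value ran from -1.55 to -0.38 over the alternatives and that of CEACAM1 from 0.41 to 1.53. Leaving out 1 array in turn left 1 to 3 of the 5 calls, and the authors' values left 1. The arrays whose removal ended a call were 1 and 3 of each group for CLDN7 (highest adjusted p without 1 array = 0.126), and 2 and 3 of each group for SLC26A2 (0.0796). For ESPN they were shCtrl 1 and 2 and shTCF7L1 1 and 3 (0.113), and for CEACAM1 shCtrl 3 and shTCF7L1 1 (0.0694). For the first CA2 probe they were shCtrl 1 and 2 and shTCF7L1 2 and 3 (0.0931).

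Among secretory cell genes 15 of 55 with a named probe were tested, of which 2 rose, 0 fell and 13 did not pass (median -0.03). These 2 calls of 15 stand against 14% of all genes. DCLK1, a kinase used as a marker of tuft cells, was above background on no control array and on all 3 knockdown arrays. Its bead signal was 30.7 to 33.3 in shCtrl and 56.9 to 60.1 in shTCF7L1, at least 1.59-fold higher against the detection limit, a bound that was not itself tested. The fitted log2 difference was 1.06 (SE 0.19, limma adjusted p = 0.00210) and ran from 0.51 to 2.84 over the alternatives. DCLK1 met the detection filter through its knockdown arrays alone, so its call depends on the group where it is high. With no detection filter its limma adjusted p was 0.0049. ISL1, a LIM homeodomain factor of enteroendocrine cells, rose 1.89-fold (log2 0.92, SE 0.22, adjusted p = 0.0131), a call that ended when the third array of either group was left out (highest adjusted p = 0.0595) or when no detection filter was used (0.0810). Without either of these 2 arrays 1 gene of the list passed.

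Of the crypt base stem cell genes, the compartment of ASCL2 and SOX9, 27 of 40 were tested. Of these 1 rose, 1 fell and 25 did not pass. These 2 calls of 27 stand against 14% of all genes. The median log2 difference was 0.24, against 0.02 over all genes, and 21 of the 27 values (77.8%) were above 0, against 52% of all genes. Values above 0 numbered 16 of 26 for the gut transcription factors, 11 of 18 for absorptive, 7 of 15 for secretory and 6 of 9 for stomach and liver genes. NOTUM, CD24 and LRIG1, above 0 by their brightest probe, were below 0 by another (-0.34, -0.09 and -0.07). CD44, EPCAM, SLC12A2 and ITGB1 stayed above 0 by their other probes. This lean was not tested. CDK6, a cyclin D partner kinase, rose 2.75-fold (log2 1.46, SE 0.20, adjusted p = 0.000256), from 199 to 275 up to 570 to 655 in bead signal. The Polycomb gene BMI1 fell by 0.69 (SE 0.22, adjusted p = 0.0496). BMI1 did not pass in 9 of 18 alternatives (adjusted p up to 0.172), among them the removal of shCtrl replicate 1, of shCtrl replicate 2 and of each knockdown array. Stomach and liver genes, which FOXA2 and HNF4A also serve in those organs, were tested for 9 of 45, with 0 higher, 1 lower and 8 not past (median 0.12). This 1 call of 9 stands against the same 14% of all genes. ANXA10, an annexin of the stomach, fell by 0.70 (SE 0.20, adjusted p = 0.0296), a call that ended when any control array, or shTCF7L1 replicate 1 or 3, was left out (adjusted p up to 0.102) or with the authors' values (0.108). The liver genes ALB (0.35, SE 0.20, adjusted p = 0.263) and SERPINA1 (0.25, SE 0.19, adjusted p = 0.419), known FOXA2 targets in liver and chosen after their values were seen, did not pass.

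Among the epithelial markers KRT8 was lower by a log2 difference of -0.82 (SE 0.24, adjusted p = 0.0340) beside ELF3 and CLDN7, so 3 of 9 tested markers fell, 0 rose and 6 did not pass. Over all genes 6.7% were called lower and 7.35% higher. KRT8 and CLDN7 each did not pass in 6 of the 18 alternatives, and ELF3 passed in all of them. Summed bead signal of the 17 markers was 9535 to 11804 in shCtrl and 8176 to 11036 in shTCF7L1, and overlapped. The KRT8 call ended when shCtrl replicate 2 or 3, or shTCF7L1 replicate 1 or 2, was left out (adjusted p up to 0.145), and also with the authors' values (0.112) and with no detection filter (0.187). Of the 12 fibroblast and smooth muscle markers 3 were tested and the collagen gene COL1A1 rose (log2 1.14, SE 0.28, adjusted p = 0.0128), a call that ended when the first array of either group was left out (highest adjusted p = 0.0720), with the authors' values (0.0635) and with no detection filter (0.166). Summed signal of that list was 698 to 798 in shCtrl and 703 to 982 in shTCF7L1, with COL1A2, FAP, LUM and PDGFRA above background on no array. Summed signal of the leukocyte markers was 405 to 523 in shCtrl and 471 to 512 in shTCF7L1; 3 of them were tested and 0 passed in limma; the smallest p was that of CD14 (0.41, SE 0.24, adjusted p = 0.288). The part of these shifts in the FOXA2 difference was not tested.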

How the data were processed

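Values are Illumina bead signals of 6 HCT116 arrays, grouped by the hairpin in the labels. Per the file headers, the deposited intensity is the mean bead signal and a detection p-value is given beside it. The intensity is not normalized between arrays. Illumina detection p-values compare a signal with negative control beads. The submitters' processing notes name GenomeStudio 2011.1, and its settings are not given in the sources read. The authors' processed intensity matrix, linear and scaled to a common mean, was an alternative.

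Signals were corrected with normexp from the detection p-values (offset 16), quantile normalized and put on log2 with neqc of limma 3.58.1 in R 4.3.3. Probes with detection p below 0.01 on at least 3 arrays (16835 of 47225) were tested with lmFit and eBayes, 2-sided, no block, Benjamini-Hochberg over all of them, called at an adjusted p below 0.05. The procedure was tested on simulated data. The annotation gave 1 symbol for 30110 probes, several for 8 and none for 17107, and 30071 were updated through Entrez identifiers with RefSeq GRCh38.p14. A gene outside the members was read by its tested probe of highest mean (10470 genes).

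Named genes were all member probes, TCF7L1, up to 4 called genes of each list with the largest change and no overlap (or the smallest p), called markers, and the 3 genes most like a called member. The members and lists were chosen with earlier results of these data known. The p-values test each group difference against the spread between 3 arrays a group, whose number limits the precision. In eBayes the spread of each probe is drawn towards that of all tested probes. An exact permutation test of 3 against 3 cannot go below p = 0.1. A bound (at least N-fold) divides the bright group by the detection limit: per dim array, the lowest normalized level among detected probes, or the probe's own level where that was greater. The 18 alternatives covered background, scaling, detection filter, variance model, probe choice, pairing and left-out arrays. A member below a filter, and likewise TCF7L1, was added to the fit to obtain its value.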

Additional observations from a re-analysis of the deposited data

How the results depend on the processing

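Over all tested probes 2195 passed, 49.5% of them higher in shTCF7L1. The count was 1072 with the authors' values (66.4% higher), 1278 without a detection filter and 1424 to 1607 with 1 array left out; 1424 was without shTCF7L1 replicate 1, 1445 without shCtrl replicate 2 and 1444 without shCtrl replicate 3. The deviations of same-numbered arrays from their group means correlated at -0.0025, 0.0005 and 0.0045, so no shared replicate effect was seen over the tested probes. These values cannot show whether same-numbered samples were prepared together. With the replicate block 2127 probes passed and no count of members or list genes changed. FOXA2 passed in all 18 alternatives; with detection required on all 6 arrays its probe fell outside the filter, so 0 of 3 tested members passed, and the value given for it there comes from adding it. With 1 array left out 1 member passed each time, and 5 to 7 gut transcription factors in place of 6. The 5 calls among absorptive genes were 3 with an offset of 50 or detection on all 6 arrays, 1 with the authors' values, 2 without a filter and 1 to 3 with 1 array left out. The 2 secretory calls were 1 with detection on all arrays or without a filter, and 1 to 2 with 1 array left out. The 2 crypt calls were 1 with median scaling, the authors' values, array weights or no filter, 4 with the mean of probes and 1 to 2 with 1 array left out. The 1 stomach and liver call was 0 with the authors' values and 0 to 1 with 1 array left out. The cause of these differences was not tested. None of the member probes that changed sign passed under any alternative: FOXA1 gave 0.047 with the authors' values and -0.27 to 0.089 with 1 array left out, CDX1 -0.12 to 0.016, CDX2 -0.040 to 0.20 and HNF4G -0.025 to 0.19, and FOXA2 probe ILMN_1763712 -0.0072 with median scaling and -0.0060 to 0.015 with 1 array left out. With the authors' values CDX1 gave -0.75, CDX2 0.21, HNF4G 0.41 and GATA6 1.502. Signal over background limits CDX1, HNF4G, GATA6, ASCL2 and 2 FOXA2 probes, for which no change could be measured.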
